A study of Mus musculus with 6 samples.

Results

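The miR-26 and miR-29 families were followed in small extracellular vesicles (sEV) shed by mouse cochlear explants, by their main arms: mmu-miR-26a-5p, mmu-miR-26b-5p, mmu-miR-29a-3p, mmu-miR-29b-3p and mmu-miR-29c-3p. These 5 members were taken by name from a read-count table of 810 miRNA rows, of which 669 carried a miRBase name, and all 5 had a row. Of the 5, 4 passed the filter on low counts and were tested, while mmu-miR-29c-3p did not. The explants came from postnatal day 3 mice of the ICR stock and were cultured for 48 h with 50 µM cisplatin (Cis-sEV) or with the same volume of PBS as vehicle (Ctrl-sEV). The labels name no transgene. The medium was made with serum depleted of vesicles, each sample pooled the vesicles of about 80 explants, and each group held 3 samples named as biological replicates. The spiral ganglion had been dissected away before culture, and the cell type that released a given vesicle was not recorded. The question put to the 2 families was whether their levels in the vesicles differed after cisplatin, a platinum drug that damages the inner ear.

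A miRNA is a short RNA that guides the Argonaute protein to messenger RNAs, mostly by pairing of its seed, the bases near its 5′ end, with sites in the 3′ untranslated region (UTR), and so lowers their translation and stability. The miR-26 family is known for restraint of growth, with the histone methyltransferase gene Ezh2 and the cyclin gene Ccne2 among its described targets, and is widely expressed. The miR-29 family is known for restraint of extracellular matrix genes such as those of collagens and elastin, and also of the DNA methyltransferase gene Dnmt3a and the survival gene Mcl1, and its low level is a familiar feature of fibrosis. Each hairpin precursor gives a 5p and a 3p arm, and the main arm is the strand usually retained.

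The mature sequences are shown because the members of a family share their seed and are told apart by few other bases, on which their separate read counts depend. They are written 5′ to 3′ from the deposited table with bases 2 to 8, the seed, in capitals.
mmu-miR-26a-5p: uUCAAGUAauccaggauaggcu
mmu-miR-26b-5p: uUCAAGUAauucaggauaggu
mmu-miR-29a-3p: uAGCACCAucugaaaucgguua
mmu-miR-29b-3p: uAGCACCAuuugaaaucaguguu
mmu-miR-29c-3p: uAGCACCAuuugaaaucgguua
All 5 were identical to the RefSeq entries of the same names. Counted from the 5′ end, mmu-miR-26b-5p differed from mmu-miR-26a-5p by C11U and C21U and was 1 base shorter. In the miR-29 family, mmu-miR-29c-3p differed from mmu-miR-29a-3p by the single substitution C10U, whereas mmu-miR-29b-3p differed from mmu-miR-29a-3p by C10U, G18A, U21G and A22U. Among the 809 rows with a sequence, no other miRNA had either seed at bases 2 to 8, so the reads of these 5 rows were the whole of the 2 seed families in the table. How the counting treated a read that fitted both mmu-miR-29a-3p and mmu-miR-29c-3p within 1 mismatch is not given in the sources used here, and the split between those 2 rows is uncertain to that extent.

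The members came from 7 hairpins in the mouse genome (GRCm38.p6, RefSeq positions, with host genes from GENCODE). The miR-26 hairpins lay within genes of the CTD small phosphatases on the same strand: Mir26a-1 in an intron of Ctdspl at chr9:119031796-119031885, Mir26b in an intron of Ctdsp1 at chr1:74394310-74394394, and Mir26a-2 in Ctdsp2 at chr10:126995530-126995613, with 1 of its 84 bases, the last, in an annotated exon. The miR-29 hairpins formed 2 pairs. Mir29a (chr6:31062660-31062747) and Mir29b-1 (chr6:31063023-31063093) lay on the minus strand between genes, 275 bases apart, and Mir29b-2 (chr1:195037040-195037120) and Mir29c (chr1:195037547-195037634) lay on the plus strand 426 bases apart, in a retained-intron exon of the noncoding gene A330023F24Rik and, on the opposite strand, in an exon of the protein-coding gene Cd46. mmu-miR-26a-5p and mmu-miR-29b-3p each arise from 2 hairpins with the same mature sequence, so their reads could not be assigned to a locus.

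Sites that pair with the seeds are shown for genes listed by name for each family, several of them described targets. Because of that choice, a high share of matches in the lists was fixed in advance. The sites are a description of sequence only, since no messenger RNA was measured here. The match to the miR-29 seed, TGGTGCT, was found in 7 of 9 listed matrix and regulatory genes (absent from the annotated 3′ UTRs of Col1a2 and Sparc) and in 13.1% of all 21022 annotated 3′ UTRs. The match to the miR-26 seed, TACTTGA, was found in 5 of 6 listed genes (absent from that of Smad1) and in 9.67% of all 3′ UTRs. The listed genes had longer 3′ UTRs than the genome at large, with medians of 1188 bases for the miR-29 list and 2528 bases for the miR-26 list against 961 bases over all genes, and a longer UTR holds any 7 bases more often. Below, the match is in capitals, on the transcript strand (GENCODE, GRCm38).
Col1a1 (chain of type I collagen), match at chr11:94952538-94952544, plus strand: gggaaggaatttcTGGTGCTat
Col3a1 (chain of type III collagen), match at chr1:45348982-45348988, plus strand: caaaatgtctcaaTGGTGCTat
Eln (elastin), first of 3 matches, chr5:134703737-134703743, minus strand: acctcatcaacgtTGGTGCTac
Ezh2 (histone methyltransferase), match at chr6:47530287-47530293, minus strand: tttgaataaagaaTACTTGAac
Dnmt3a held 5 matches to the miR-29 seed in its 3′ UTR, and Fbn1, the fibrillin gene of elastic fibres, held 2.

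The libraries differed in depth with the group: the Cis-sEV libraries held 1722359 to 1794175 miRNA reads and the Ctrl-sEV libraries 528952 to 718597. A count of 3 reads, taken as the floor of detection, was therefore worth 1.67 to 1.74 counts per 1000000 miRNA reads (CPM) in Cis-sEV and 4.17 to 5.67 CPM in Ctrl-sEV. The Ctrl-sEV replicates also varied more among themselves, with a biological coefficient of variation of 1.55 against 0.369 in Cis-sEV. Fold changes below are on the scale of edgeR's trimmed mean of M-values (TMM), and a call means an adjusted p of at most 0.05 with a log2 fold change of at least 1 in size. The 353 miRNAs tested had a median log2 fold change of 0.44 on that scale, with 83 (23.5%) called higher after cisplatin and 23 (6.52%) called lower. All levels are shares of the miRNA reads of a library, so an amount per vesicle or per explant was not measured, and fewer cells of a type and less of a miRNA per cell cannot be told apart in such pooled vesicles.

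The 2 families differed widely in abundance. The miR-26 family was among the most abundant in every library, at 29669 to 47538 CPM, while the miR-29 family was near the floor, at 0 to 79.4 CPM. Of the 4 members tested, 0 were called higher and 0 lower by edgeR's quasi-likelihood test. Only mmu-miR-26b-5p had an unadjusted p under 0.05 by that test (0.0228), a limit met by 147 of the 353 tested miRNAs. It was also the 1 tested member whose Cis-sEV libraries all lay above all Ctrl-sEV libraries in TMM-scaled CPM, a separation shown by 37.7% of all tested miRNAs. The plot of levels by library shows this gap in abundance and the spread of each member.

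**Figure D1:**
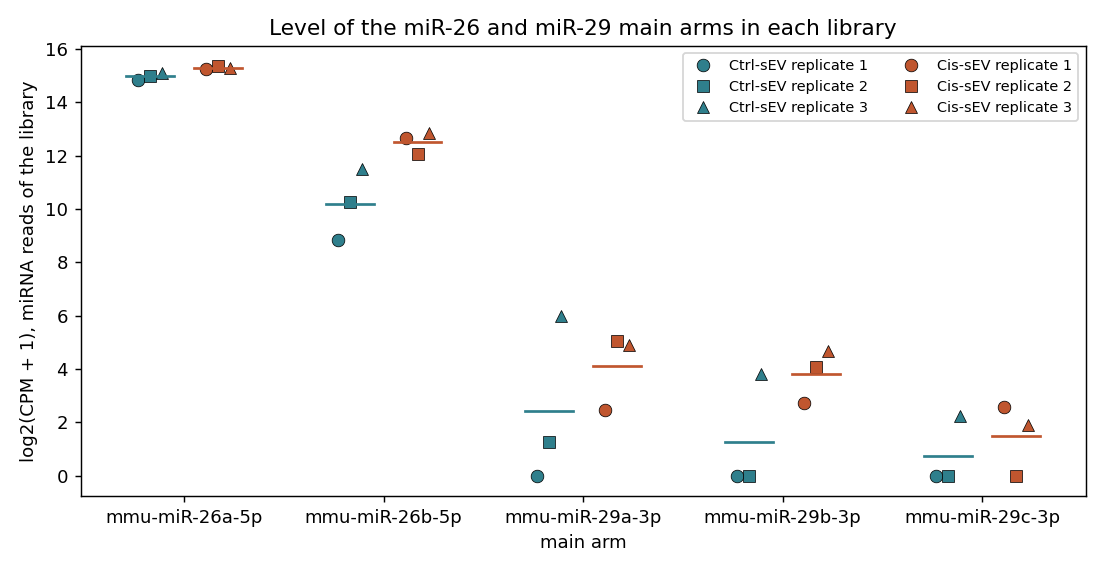
Level of each main arm in the 6 libraries, on the vertical axis as log2(CPM + 1) of miRNA reads, with circles, squares and triangles for replicates 1, 2 and 3, blue-green for Ctrl-sEV and orange for Cis-sEV, and a line at the group mean of the plotted values. mmu-miR-26a-5p sat in a narrow band, mmu-miR-26b-5p separated the groups with all Cis-sEV points on top, and for the miR-29 members Ctrl-sEV replicate 3 stood among or above the Cis-sEV libraries while the other Ctrl-sEV libraries held 0 or 1 read.

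mmu-miR-26a-5p, the dominant member of its family, had 69651, 71561 and 72188 reads in Cis-sEV replicates 1 to 3 and 15771, 23116 and 18525 reads in Ctrl-sEV replicates 1 to 3. Scaled to library size this was 38881, 41548 and 40235 CPM in Cis-sEV and 29217, 32168 and 35022 CPM in Ctrl-sEV. The Cis-sEV libraries were all above the Ctrl-sEV libraries in CPM, but the groups overlapped after TMM scaling, at 35648 ± 1970 CPM after cisplatin and 36298 ± 3483 CPM in the controls (mean ± SD, n = 3 each). It ranked 6 in each Cis-sEV library and 9, 9 and 6 among the controls. The log2 fold change of Cis-sEV over Ctrl-sEV was -0.03 (SE 0.134, 95% interval -0.34 to 0.29), with an adjusted p of 0.933 by edgeR's quasi-likelihood test with Benjamini-Hochberg adjustment. Its direction depended on the scaling: by total miRNA reads alone it was 0.32, with an edgeR adjusted p of 0.0533, on a scale where the median of all tested miRNAs was 0.80.

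mmu-miR-26b-5p, the minor member of the family, had 11600, 7399 and 13104 reads in Cis-sEV and 244, 886 and 1535 reads in Ctrl-sEV. These were 6475, 4296 and 7304 CPM against 452, 1233 and 2902 CPM. Every Cis-sEV library was above every Ctrl-sEV library. After TMM scaling the level was 5310 ± 1222 CPM after cisplatin and 1666 ± 1340 CPM in the controls (mean ± SD, n = 3 each), a log2 fold change of 1.67 (SE 0.575, 95% interval 0.31 to 3.03). The adjusted p by edgeR's quasi-likelihood test with Benjamini-Hochberg adjustment was 0.063, so the difference was not called. It was called in 4 of 18 alternatives, among them DESeq2 (log2 fold change 1.54, adjusted p 0.0322), edgeR when only miRNAs with at least 10 counts in every library were tested (1.71, adjusted p 0.0197), and edgeR without Ctrl-sEV replicate 3, the Ctrl-sEV library with most of this miRNA (2.59, adjusted p 0.0197). Over all alternatives the log2 fold change lay between 1.18 and 2.59 and the adjusted p between 0.0197 and 0.205, so the direction held in each of them while the call did not.

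The contrast within the family did not depend on the scaling between libraries, because both arms were counted in the same library. mmu-miR-26b-5p made up 14.3%, 9.37% and 15.4% of the miR-26 main-arm reads in Cis-sEV replicates 1 to 3 and 1.52%, 3.69% and 7.65% in Ctrl-sEV replicates 1 to 3. The shares did not overlap between the groups. How often other pairs of miRNAs separate the groups in this way was not counted. Of single tested miRNAs, 37.7% lay above in every Cis-sEV library after TMM scaling. There were 6.004, 9.67 and 5.51 reads of mmu-miR-26a-5p for each read of mmu-miR-26b-5p in Cis-sEV and 64.6, 26.1 and 12.1 in Ctrl-sEV. The mean log2 ratio was 2.77 ± 0.437 in Cis-sEV and 4.77 ± 1.21 in Ctrl-sEV (mean ± SD, n = 3 each), a difference of -1.997 with a two-sided exact permutation p of 0.1, which is the smallest that 3 against 3 libraries can give. Of the 5 ratios listed within and between the families, this was the 1 that all 6 libraries defined; with 1 read added to both terms of every ratio it was -1.99, and its exact permutation p adjusted over the 5 ratios was 0.5.

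**Figure D2:**
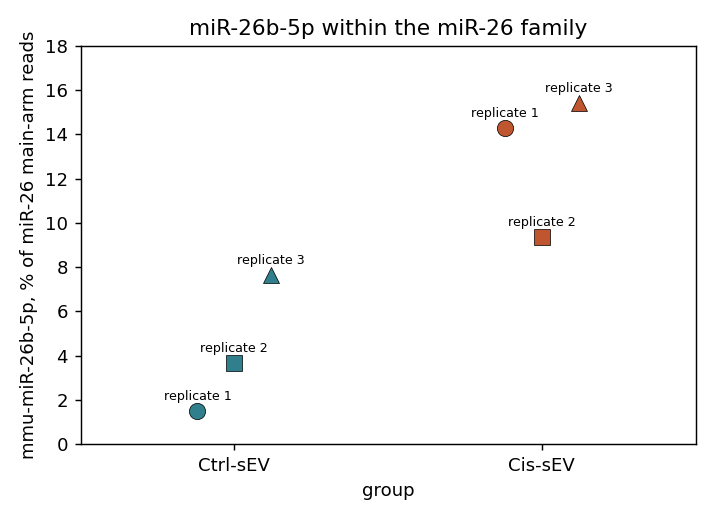
Share of mmu-miR-26b-5p in the summed reads of mmu-miR-26a-5p and mmu-miR-26b-5p, in percent on the vertical axis, with 1 point per library and the groups on the horizontal axis. The 3 Cis-sEV libraries lay between 9.37% and 15.4% and the 3 Ctrl-sEV libraries between 1.52% and 7.65%.

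Summed over both members, the miR-26 family had 45356, 45844 and 47538 CPM in Cis-sEV and 29669, 33401 and 37924 CPM in Ctrl-sEV. The sum was above in every Cis-sEV library in CPM, a scale on which the median log2 fold change of all tested miRNAs was 0.80. The share of all miRNAs that separate in CPM was not counted. The sum overlapped after TMM scaling, at 41160 ± 762.8 CPM after cisplatin and 37777 ± 4046 CPM in the controls (mean ± SD, n = 3 each). The log2 fold change of the sum was 0.12 (SE 0.127, 95% interval -0.18 to 0.42) with an edgeR adjusted p of 0.589. By total miRNA reads it was 0.46 (edgeR adjusted p 0.0209) and without Ctrl-sEV replicate 3 it was 0.29 (edgeR adjusted p 0.0211), both under the fold limit, within adjusted p values of 0.0209 to 0.989 over all alternatives. With upper-quartile factors it was -0.10, so neither direction is given for the family as a whole.

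mmu-miR-29a-3p had 8, 55 and 52 reads in Cis-sEV replicates 1 to 3 and 0, 1 and 33 reads in Ctrl-sEV replicates 1 to 3. In CPM these were 4.47, 31.9 and 28.98 against 0, 1.39 and 62.4. The highest library of all was Ctrl-sEV replicate 3, and the groups overlapped. The log2 fold change was -0.26 (SE 1.75, 95% interval -4.41 to 3.87) with an edgeR adjusted p of 0.936, an interval too wide to give a direction.

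mmu-miR-29b-3p had 10, 27 and 44 reads in Cis-sEV and 0, 0 and 7 reads in Ctrl-sEV, or 5.58, 15.7 and 24.5 CPM against 0, 0 and 13.2 CPM. Reads were present in each Cis-sEV library and in 1 of 3 Ctrl-sEV libraries, and Ctrl-sEV replicate 3 lay above the lowest Cis-sEV library. The log2 fold change was 1.47 (SE 1.499, 95% interval -2.06 to 5.04) with an edgeR adjusted p of 0.58. mmu-miR-29c-3p, the rarest member, had 9, 0 and 5 reads in Cis-sEV and 0, 0 and 2 in Ctrl-sEV, where a count of 0 allows up to 4.17 CPM in replicate 2 and 5.56 CPM in replicate 1. It did not pass the filter on low counts, and with no filter its log2 fold change was 0.70 (SE 2.45) with an edgeR adjusted p of 0.823 among 810 rows. Its pooled CPM ratio was 2.36 with a 95% counting interval of 0.541 to 21.4 (Clopper-Pearson), and no direction is given.

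The summed miR-29 family had 27, 82 and 101 reads in Cis-sEV and 0, 1 and 42 reads in Ctrl-sEV, or 15.1, 47.6 and 56.3 CPM against 0, 1.39 and 79.4 CPM. After TMM scaling the level was 35.1 ± 18.7 CPM after cisplatin and 29.6 ± 50.1 CPM in the controls (mean ± SD, n = 3 each), with a log2 fold change of 0.25 (SE 1.86, 95% interval -4.15 to 4.64) and an edgeR adjusted p of 0.938. Ctrl-sEV replicate 3 held 42 of the 43 miR-29 main-arm reads of the group and decided the comparison. Without it the log2 fold change of the sum was 5.31 with an edgeR adjusted p of 0.0354, which was called. With 1 Ctrl-sEV read left, the sum passed the filter only through Cis-sEV, so that call cannot support a difference. In the fit of single miRNAs without that library, 32.7% of 441 tested were called higher. The adjusted p of the sum ranged from 0.0354 to 0.99 over all alternatives. Without Ctrl-sEV replicate 1 or replicate 2 the log2 fold change was -0.42 or -0.41 instead, so the direction was not stable either.

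The counts behind these folds were small. Pooled over the libraries, the ratio of Cis-sEV to Ctrl-sEV CPM for the miR-29 sum was 1.64, with a 95% counting interval of 1.18 to 2.34 (Clopper-Pearson, counting error only), and without Ctrl-sEV replicate 3 it was 49.8, from 210 reads against 1, with a counting interval of 8.84 to 1980. For mmu-miR-29a-3p the same ratios were 1.14 (0.771 to 1.72) and 27.3 (4.8 to 1090). For mmu-miR-29b-3p the ratio was 3.90 (1.81 to 10.0) with every library, and without Ctrl-sEV replicate 3, where the remaining Ctrl-sEV libraries held 0 reads, it was at least 6.40-fold higher in Cis-sEV, taking the floor as 3 reads over the group. edgeR called mmu-miR-29b-3p in that reduced set (adjusted p 0.0416, within 0.0416 to 0.869 over all alternatives), where 32.7% of 441 tested miRNAs were called higher. With 0 Ctrl-sEV reads left, its row passed the filter only through Cis-sEV, so that call cannot support a difference. mmu-miR-29a-3p was not called in the reduced set (edgeR log2 fold change 4.44, adjusted p 0.0718). Reads are not independent molecules, so the spread between libraries, not these intervals, bears on the groups.

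**Figure D3:**
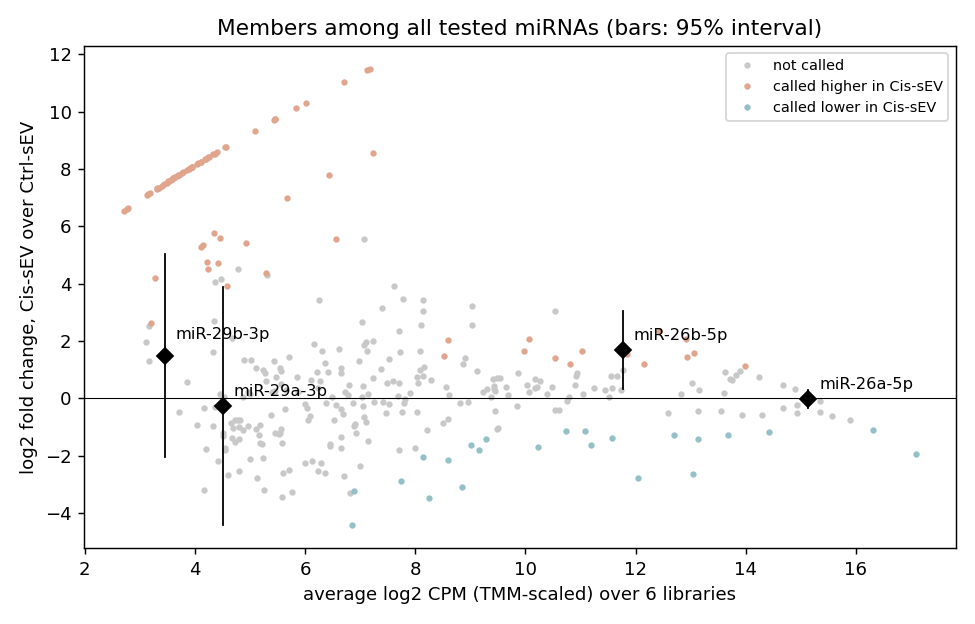
Log2 fold change of Cis-sEV over Ctrl-sEV on the vertical axis against average log2 CPM on the horizontal axis for the 353 tested miRNAs, coloured by call, with the 4 tested members as diamonds and bars for their 95% intervals. mmu-miR-26a-5p lay on the line at 0 with a short bar and mmu-miR-26b-5p at 1.67 with its bar above 0, while the bars of mmu-miR-29a-3p and mmu-miR-29b-3p crossed 0; the rising line of calls at the upper left holds miRNAs with 0 reads in every Ctrl-sEV library (53 of the 83 called higher), whose fitted fold depends on the prior count.

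Within the miR-29 family the order of the members was the same in most libraries that held 10 or more reads of the family. In Cis-sEV replicates 2 and 3 and in Ctrl-sEV replicate 3, mmu-miR-29a-3p gave 67.1%, 51.5% and 78.6% of the family reads, mmu-miR-29b-3p 32.9%, 43.6% and 16.7%, and mmu-miR-29c-3p 0%, 4.95% and 4.76%. Cis-sEV replicate 1 differed, with 27 reads split nearly evenly at 29.6%, 37.0% and 33.3%. With 1 read added to both terms, the ratio of mmu-miR-29a-3p to mmu-miR-29b-3p differed between the groups by -0.71 on the log2 scale (two-sided exact permutation p 0.5, 0.625 adjusted over the 5 ratios). The ratio of mmu-miR-29b-3p to mmu-miR-29c-3p differed by 2.15 (exact permutation p 0.2, 0.5 adjusted) and that of mmu-miR-29a-3p to mmu-miR-29c-3p by 1.43 (exact permutation p 0.7, 0.7 adjusted). With 3 against 3 libraries this test cannot go below 0.1, so it could not have called any of these differences. There were 3009, 963 and 844 miR-26 reads for each miR-29 read in Cis-sEV replicates 1 to 3 and 24002 and 478 in Ctrl-sEV replicates 2 and 3, and the ratio was undefined in Ctrl-sEV replicate 1, which had 16015 miR-26 reads and 0 miR-29 reads.

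The other arms of the same hairpins gave a second reading of these loci, and 5 of the 7 listed arms had a row. Their sequences show that they carry different seeds from the main arms.
mmu-miR-26b-3p: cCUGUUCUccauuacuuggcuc
mmu-miR-29c-5p: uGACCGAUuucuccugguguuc
mmu-miR-26b-3p, the opposite strand of mmu-miR-26b-5p, had 14, 52 and 38 reads in Cis-sEV and 0, 1 and 0 in Ctrl-sEV. It was above in every Cis-sEV library, as its main arm was, but it did not pass the filter on low counts. Its pooled CPM ratio was 35 with a counting interval of 6.15 to 1400, and the main arm gave 99.3% to 99.88% of the hairpin's reads in the cisplatin libraries and 99.89% to 100% in the controls. mmu-miR-29b-1-5p, from the cluster with Mir29a, had 5, 9 and 8 reads in Cis-sEV and 0 in each Ctrl-sEV library. This was at least 2.47-fold higher with a floor of 3 reads over the group, a bound that leaves out the spread between libraries. Such patterns were common. Any Ctrl-sEV library had reads for only 258 to 311 of the 810 rows, whereas a Cis-sEV library had them for 586 to 603. Of all tested miRNAs, 37.7% lay above in every Cis-sEV library after TMM scaling. Neither mmu-miR-26b-3p nor mmu-miR-29b-1-5p was tested, so no difference is drawn from their counts. The arms particular to each miR-26a hairpin were nearly absent, with 7 reads of mmu-miR-26a-1-3p in Cis-sEV replicate 2 and 10 reads of mmu-miR-26a-2-3p in Cis-sEV replicate 3 as the whole of their counts.

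The hairpin of miR-29c was read mainly from its other strand. mmu-miR-29c-5p had 73, 46 and 74 reads in Cis-sEV and 3, 0 and 36 in Ctrl-sEV, more than the 9, 0 and 5 and the 0, 0 and 2 reads of mmu-miR-29c-3p. The named main arm made up 6.76% of the reads of both arms over the Cis-sEV libraries (Wilson 95% interval 4.07% to 11.03%) and 4.88% over the Ctrl-sEV libraries (1.35% to 16.1%). Thus, by the deposited counts, the 5p arm led in each of the 5 libraries that had reads of the hairpin. The counts of mmu-miR-29c-3p carry the uncertain split from mmu-miR-29a-3p, which the Wilson intervals do not cover. In CPM, Ctrl-sEV replicate 3 was again the highest library, at 68.1 against 26.7 to 41.2 after cisplatin, and the log2 fold change of mmu-miR-29c-5p was 0.24 (SE 1.67) with an edgeR adjusted p of 0.94. Without Ctrl-sEV replicate 3 it was 3.42 with an edgeR adjusted p of 0.127, within 0.127 to 0.999 over all alternatives.

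**Figure D4:**
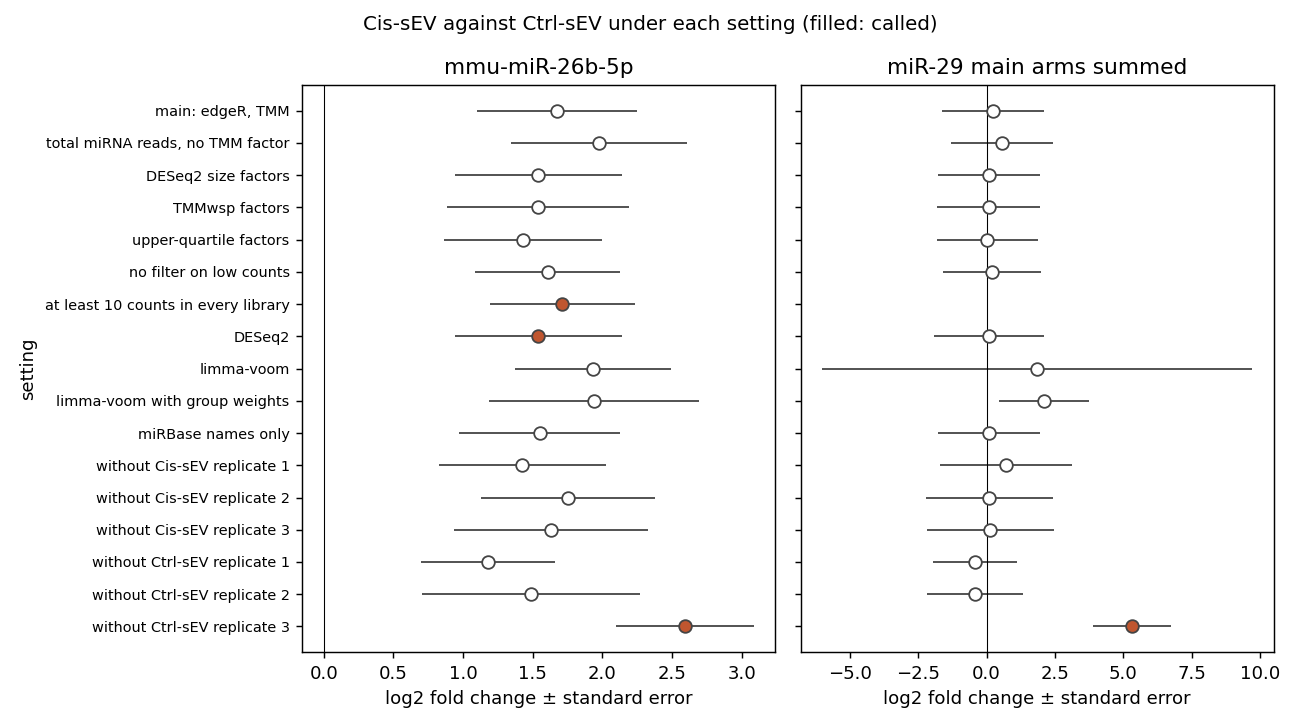
Log2 fold change of Cis-sEV over Ctrl-sEV on the horizontal axes, with bars of 1 standard error, for mmu-miR-26b-5p (left) and the summed miR-29 main arms (right), under the main fit and the alternatives named on the vertical axis, with filled points where the difference was called. mmu-miR-26b-5p stayed between 1.18 and 2.59, and, among the settings plotted, the miR-29 sum lay between -0.42 and 2.10 except without Ctrl-sEV replicate 3, where it was 5.31; the strictest filter gave no value for miR-29.

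Other miRNAs known for control of matrix genes or growth were set beside the 2 families. Of 20 listed, 19 had a row and 18 were tested, of which 3 were called higher in Cis-sEV, 0 lower and 15 neither, with a median log2 fold change of 0.95 against 0.44 over all tested miRNAs. mmu-miR-34a-5p, a target of p53 that restrains growth, rose by 2.36 on the log2 scale (edgeR adjusted p 0.00502). mmu-miR-200b-3p and mmu-miR-200a-3p, which restrain the Zeb genes, rose by 1.65 and 1.21 (edgeR adjusted p 0.0141 and 0.0164). The more abundant mmu-miR-200c-3p of the same family had 0.28 and was not called (edgeR adjusted p 0.583). mmu-miR-30d-5p and mmu-miR-125b-5p passed the adjusted p but not the fold limit, at 0.98 and 0.94 (edgeR adjusted p 0.0053 and 0.0298). mmu-miR-21a-5p, which is known for promoting fibrosis, had a log2 fold change of 0.27, and mmu-miR-146a-5p, a brake on inflammatory signalling, had -0.08, neither called. The 3 in 18 called higher stand beside 83 of 353 (23.5%) over all tested miRNAs, but these shares are not of like rows. Of the 83, 53 had 0 reads in every Ctrl-sEV library, whereas each of the 18 had Ctrl-sEV reads. No difference between the shares is drawn.

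Markers of other sources did not all move alike between the groups. Their sums are in CPM without TMM scaling, and by total reads the median log2 fold change of all tested miRNAs was 0.80. The summed erythrocyte and serum miRNAs stood at 2323 to 2609 CPM in Cis-sEV and 7747 to 10210 CPM in Ctrl-sEV. Of 4 tested, 3 were called lower, beside 6.52% of all tested miRNAs. These were mmu-miR-451a at -1.15, mmu-miR-486a-5p at -3.47 and mmu-miR-122-5p at -2.78 on the log2 scale, while mmu-miR-144-3p had 2 reads in all. The 2 endothelial arms summed to 6915 to 9947 CPM in Cis-sEV and 14590 to 18600 CPM in Ctrl-sEV, with the abundant mmu-miR-126a-3p called lower at -1.28, whereas mmu-miR-126a-5p had 229 reads in Cis-sEV and 3 in Ctrl-sEV, lay above in every Cis-sEV library and was not called (log2 fold change 4.17, edgeR adjusted p 0.0759). The hair cell miRNAs of the miR-183 cluster were present in every library. They summed to 59070 to 81520 CPM in Cis-sEV and 54980 to 55760 CPM in Ctrl-sEV, but this separation is of sums without TMM scaling. After TMM scaling only mmu-miR-96-5p, 1 of 3, was above in every Cis-sEV library, and it was called higher at 2.08. Of the others, mmu-miR-183-5p, the most abundant, was below in every Cis-sEV library after TMM scaling. It passed the adjusted p but not the fold limit, at -0.49 (edgeR adjusted p 0.0419). mmu-miR-182-5p overlapped between the groups and had 0.18 (edgeR adjusted p 0.782). Mesenchymal markers ran from 6062 to 9821 CPM in Cis-sEV and from 3018 to 5307 CPM in Ctrl-sEV with 0 of 5 called. After TMM scaling 1 of 5 was above in every Cis-sEV library, beside 37.7% of all tested miRNAs. The highest sum, in Cis-sEV replicate 2, held 6515 reads of mmu-miR-199a-3p, against 574 and 345 in replicates 1 and 3. The 2 of 4 leukocyte markers with a row ran from 259.6 to 362.3 CPM in Cis-sEV and from 243.9 to 560.8 CPM in Ctrl-sEV with 0 called. The part of these sources in the levels of miR-26 and miR-29 was not tested.

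The miRNAs whose profile over the 6 libraries was most like each family were found among 349 other tested miRNAs, by the root mean square difference of their log2(TMM-scaled CPM + 1), each centred on its own mean. For the miR-26 sum they were mmu-miR-9-5p (0.08), mmu-miR-146a-5p (0.11) and mmu-miR-669c-5p (0.11), of which 0 were called by edgeR. For the miR-29 sum they were mmu-miR-33-5p (0.49), mmu-miR-744-3p (0.62) and mmu-miR-490-5p (0.63), which were at larger distances. Each of these 3 had 0 reads in Ctrl-sEV replicates 1 and 2 and, in replicate 3, 28.4, 58.6 and 24.6 CPM respectively, a pattern that their choice by likeness to the miR-29 sum favours. Over the tested miRNAs, leaving that library out raised the number called higher from 83 of 353 to 144 of 441.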

How the data were processed

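Small RNA libraries of 18 to 30 bases from sEV of 3 Cis-sEV and 3 Ctrl-sEV samples were sequenced on the DNBSEQ platform. The authors placed the filtered reads on the GRCm38.p6 assembly (Bowtie2), assigned them to small RNA classes (AASRA for databases, cmsearch for Rfam) with miRBase taking precedence, and deposited raw read counts per miRNA. The table also holds the authors' mean of the 3 counts of each group, entered here as a score and not used, and mature sequences. No column was left out for lack of a sample (0).

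The counts were tested with edgeR 4.0.16 in R 4.3.3 (TMM factors, filterByExpr with a minimum count of 10 and total of 15, quasi-likelihood fit, Benjamini-Hochberg adjustment over all 353 miRNAs tested). Family sums replaced their members' rows in a second fit. The call limits are those of the study's methods, whose MA-plot test was not used. Ratios were compared by exact permutation. Scripts were tested on simulated data. DESeq2 1.42.0, limma 3.58.1, other scalings and filters, and leaving out each library were the alternatives. Totals of 528952 to 1794175 reads set the floor of 3 reads at 1.67 to 5.67 CPM. The Clopper-Pearson and Wilson intervals cover counting error only. Those of the log2 fold changes come from the edgeR fit and include the spread between libraries. Replicates within a group differed by far more than sampling noise (chi-square per degree of freedom 66.3 to 115).

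The named miRNAs were the members, the other arms of their hairpins, the listed matrix, growth and marker miRNAs, and for each family sum the 3 miRNAs closest in profile. Members and lists were chosen with earlier results of these data known. Hairpin positions and mature sequences were matched to RefSeq (GRCm38.p6), and 3′ UTRs, the longest annotated per gene, were taken from GENCODE M21 on the same assembly. Figures and sequences were made with Python 3.11.15.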

Additional observations from a re-analysis of the deposited data

How the results depend on the processing

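With 3 libraries per group, 1 library could set the miR-29 values, and 1 read was worth more CPM in Ctrl-sEV than in Cis-sEV. The miR-26 sum turned to -0.10 with upper-quartile factors and -0.030 with miRBase names only, and lay between 0.08 and 0.29 when each library was left out in turn. The difference in the log2 ratio of mmu-miR-26a-5p to mmu-miR-26b-5p lay between -2.59 and -1.38 in that exercise and kept its sign in all 7 alternatives. The miR-29 sum lay between -0.42 and 5.31, the last without Ctrl-sEV replicate 3; filtering at 10 counts in every library left no miR-29 row to test. mmu-miR-26a-5p turned to 0.32 by total reads, 0.029 with that filter and ran from -0.16 to 0.12 with a library left out. mmu-miR-29a-3p turned to 0.042 by total reads, 0.97 with limma-voom and 1.18 with its group weights, and lay between -0.96 and 4.44 with a library left out (0.10 without Cis-sEV replicate 1). mmu-miR-29c-5p lay between -0.38 and 3.42 with a library left out, below 0 in 3 of 6 such sets. The cause of these changes was not tested.

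Over all miRNAs, the 83 called higher became 18 with at least 10 counts in every library (135 tested) and 30 with limma-voom, and ran from 40 (without Cis-sEV replicate 1) to 144 (without Ctrl-sEV replicate 3) with a library left out. The 23 called lower became 11 by total reads, 14 with no filter and 13 with limma-voom, and ran from 11 (without Cis-sEV replicate 3) to 30 (without Ctrl-sEV replicate 1). With total reads the split of calls was 97 higher and 11 lower. Over the scalings, with the same filter, the 353 miRNAs tested had a median log2 fold change that ran from 0.22 with upper-quartile factors to 0.80 by total reads.

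Neither the labels nor the counts showed that the replicate numbers pair the libraries. Deviations from the group means of same-numbered libraries had correlations of -0.05, -0.18 and -0.01, and no library correlated best with its own number. With 3 libraries per group these correlations cannot exclude a pairing. A replicate block gave 13 higher and 11 lower calls, 1.96 for mmu-miR-26b-5p (edgeR adjusted p 0.0276), 0.13 for the miR-26 sum, 3.28 for the miR-29 sum and 2.30 for mmu-miR-29a-3p.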
